A study of Mus musculus with 24 samples.

Results

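Type I interferon-stimulated genes were followed across mice with traumatic brain injury (TBI) and sham-operated mice. A list of 48 mouse gene symbols was looked up in the table of expression values, and a listed gene was kept when its mean over all 24 libraries reached 0.5 TPM. TPM is a transcript level meant to correct for the length of the gene, and it gives every library an equal sum. Of the 48 symbols, 45 were analysed and all of these 45 passed, out of 36333 genes in the table and 17267 that reached the same level and were tested. Oas1b, Mx1 and Mx2 were not analysed here. The rule used the level over all mice together and no comparison between groups.

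RNA of brain tissue in and around the lesion was sequenced from 24 male C57BL6N mice aged 12 to 16 weeks, 1 library per mouse, at 5 days after controlled cortical impact (5 dpi). Vehicle mice (n = 5) had TBI and received control chow and saline. PLX3397 mice (n = 5) had TBI and ate chow with 290 mg/kg of the CSF1R inhibitor from 90 min after the impact. Anakinra mice (n = 5) had TBI and received the IL1R1 antagonist at 100 mg/kg under the skin at 5 min, 24 h, 48 h and 72 h. PLX3397+Anakinra mice (n = 5) received both drugs on those schedules after TBI, and Sham mice (n = 4) had sham surgery without craniotomy and, like Vehicle mice, control chow and saline. The labels give the tissue as cortex and the strain as C57BL6N, whereas the methods describe a quadrant that also held striatum, dorsal hippocampus and thalamus and name C57BL/6JRj mice of a narrower age range. Only the animal numbers of the 5 Vehicle mice end in the letter B, so that anything this letter stands for cannot be told apart from the vehicle group.

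Type I interferons are secreted when cells sense viral or displaced self nucleic acid. They bind the receptor pair Ifnar1 and Ifnar2, whose kinases Jak1 and Tyk2 pass the signal to a complex that holds Stat2 and Irf9 and binds the interferon-stimulated response element in promoters. The genes it switches on block viral entry, translation and replication, and several of them sense RNA or feed back on the pathway itself. In brain, microglia, infiltrating myeloid cells, astrocytes and endothelium can all carry this programme, which also follows sterile injury.

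The listed genes were mostly low in uninjured tissue. In Sham mice their group means ran from 0.0684 TPM (Oas3) to 56.7 TPM (Ifi27) with a median of 3.10 TPM, and in Vehicle mice from 1.22 TPM (Oas3) to 235 TPM (Ifitm3) with a median of 13 TPM. The depth of the libraries is unknown, since only TPM were used here, and precision comes from the 5 mice of a TBI group or the 4 Sham mice. Of the mice with TBI, Vehicle J17B had the lowest value of its group in 40 of the 45 genes and Anakinra J14 the highest of its group in 40. PLX3397 J19 was the highest of its group in 32 genes, and PLX3397 J01 was the lowest in 28. Results that change without these mice are given with the value found without them. Markers of cortex and striatum were present in all mice, with a summed level over 8 genes of 736 to 1260 TPM and none at 0.

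The listed genes come in genomic clusters. On the mouse genome assembly GRCm38.p6, Ifit2, Ifit3, Ifit3b and Ifit1 lie within 99.5 kb on chromosome 19 (34550550 to 34650009), and Slfn5, Slfn8 and Slfn2 within 119 kb on chromosome 11 (82951349 to 83070678). Parp14, Dtx3l and Parp9 lie within 141 kb on chromosome 16 (35831892 to 35972621). Oas2, Oas3 and Oas1a share 177 kb of chromosome 5 (120730333 to 120907544), and Oasl2 and Oasl1 share 41.0 kb of the same chromosome (114896926 to 114937911). Rsad2 and Cmpk2 are neighbours on chromosome 12 (26442743 to 26479837).

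Members of such clusters can share reads. Words of 75 bases taken from the GENCODE M21 transcripts were shared with another gene for 47.6% of Oas1a (mostly with Oas1g), 41.1% of Ifit3 and 35.7% of Ifit3b (with each other), 11.3% of Herc6 and 10.5% of Rtp4, and for at most 6.99% (Slfn8) of each other listed gene. Levels of Oas1a, Ifit3 and Ifit3b are therefore uncertain where the authors' counting split such reads. In the RefSeq annotation, 15 of the 45 genes overlap another gene by at least 100 bases, among them Ifi27 and Ifi27l2a, and whether the counting used strand is not given in the sources used here.

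Promoter sequences show the element through which the pathway acts, and a few are printed to let it be read beside the expression values. RefSeq promoters (GRCm38.p6) were found for 36 of the 45 genes. The genes not matched were Ifi27l2a, Ifi27, Dhx58, Usp18, Oas2, Parp9, Parp14, Zbp1 and Rtp4. The 250 bases before each start site were searched for the response element, spelled GAAA, NN and GAAA without a gap or, on the other strand, TTTC, NN and TTTC, where N is any base. It was present in 12 of the 36 listed genes with a promoter (33.3%), and in 3.46% of all 27025 genes with a promoter of that length. The gamma-activated sequence TTCNNNGAA, which reads the same on both strands and mediates responses to interferon gamma, was present in 5 of the 36 (13.9%) against 8.13% of all genes. Matches can overlap, and a match is a description of the letters only.

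The promoters of Isg15 (minus strand, chr4:156200819-156201068), Ifit1 (plus strand, chr19:34640639-34640888), Ifit3 (plus strand, chr19:34583279-34583528), Oas1a (minus strand, chr5:120907526-120907775), Bst2 (minus strand, chr8:71537473-71537722), Rsad2 (minus strand, chr12:26456453-26456702) and Slfn5 (plus strand, chr11:82951852-82952101) are written 5′ to 3′ up to the base before the start site, with every response element in capitals.
Isg15: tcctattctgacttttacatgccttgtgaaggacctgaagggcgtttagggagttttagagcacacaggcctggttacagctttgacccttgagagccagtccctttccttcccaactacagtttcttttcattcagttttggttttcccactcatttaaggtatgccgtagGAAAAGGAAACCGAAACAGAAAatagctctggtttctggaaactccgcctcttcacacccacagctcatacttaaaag
Ifit1: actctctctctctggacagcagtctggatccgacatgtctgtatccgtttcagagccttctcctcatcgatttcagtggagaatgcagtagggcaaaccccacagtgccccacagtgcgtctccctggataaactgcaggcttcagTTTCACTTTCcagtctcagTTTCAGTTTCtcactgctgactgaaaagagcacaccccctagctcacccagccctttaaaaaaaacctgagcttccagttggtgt
Ifit3: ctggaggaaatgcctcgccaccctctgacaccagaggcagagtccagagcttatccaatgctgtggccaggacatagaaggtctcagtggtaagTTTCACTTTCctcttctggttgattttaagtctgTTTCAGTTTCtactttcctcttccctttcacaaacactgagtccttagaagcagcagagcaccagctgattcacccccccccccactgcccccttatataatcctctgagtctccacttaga
Oas1a: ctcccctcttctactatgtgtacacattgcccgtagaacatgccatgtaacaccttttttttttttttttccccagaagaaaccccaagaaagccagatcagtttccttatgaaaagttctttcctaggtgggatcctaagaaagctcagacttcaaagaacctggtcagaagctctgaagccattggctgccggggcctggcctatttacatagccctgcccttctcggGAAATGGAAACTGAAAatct
Bst2: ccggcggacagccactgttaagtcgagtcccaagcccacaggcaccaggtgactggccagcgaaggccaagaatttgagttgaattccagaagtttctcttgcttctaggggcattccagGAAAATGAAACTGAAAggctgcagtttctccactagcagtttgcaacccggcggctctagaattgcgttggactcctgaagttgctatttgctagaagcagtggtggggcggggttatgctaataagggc
Rsad2: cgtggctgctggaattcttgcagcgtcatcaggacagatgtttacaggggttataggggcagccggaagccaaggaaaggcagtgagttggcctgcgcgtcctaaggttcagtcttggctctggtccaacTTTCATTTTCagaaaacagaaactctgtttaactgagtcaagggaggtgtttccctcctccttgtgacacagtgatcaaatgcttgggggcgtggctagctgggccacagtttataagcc
Slfn5: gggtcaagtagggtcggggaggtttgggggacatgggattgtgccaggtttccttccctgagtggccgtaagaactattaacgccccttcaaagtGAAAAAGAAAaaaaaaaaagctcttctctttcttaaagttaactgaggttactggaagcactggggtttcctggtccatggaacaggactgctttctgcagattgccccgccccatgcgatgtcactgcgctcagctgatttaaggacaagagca

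Isg15 carried 3 overlapping matches, of which the nearest began 66 bases before the start, and Ifit1 carried a pair that began 104 and 85 bases before it. The pair of Ifit3 began at 156 and 122 bases. The promoter of Ifit3b has a run of 169 bases identical to that of Ifit3, and its pair began at 188 and 154 bases before the start. In Oas1a the nearest match began only 14 bases before the start, in Bst2 at 124, in Rsad2 at 120 and in Slfn5 at 155. Ifit2, Ifi44, Oasl1, Oasl2, Cmpk2, Ifitm3, Slfn2 and Trim25 had no match to these letters in their window.

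Nearly the whole set was higher after TBI. Vehicle mice had craniotomy and impact and Sham mice had neither, so that their parts cannot be told apart here, nor from what the letter B stands for. Of the 45 genes, 44 were higher in Vehicle than in Sham mice by limma at an adjusted p below 0.05 and none was lower, against 26.6% of all genes tested that were higher. The same 44 genes did not overlap between the 2 groups, against 21.7% of all genes that were higher without overlap. The median log2 fold change of the 45 genes was 1.72, against -0.01 over all genes tested. Fold changes are given on the scale of log2(TPM + 1), which understates changes of low genes. Cmpk2 was the exception and is described with Rsad2.

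Markers of several cell types moved with injury as well. In Vehicle against Sham mice, 11 of 11 microglia markers, 8 of 9 tested markers of infiltrating and border myeloid cells, 7 of 8 astrocyte markers, 6 of 8 endothelial markers and 7 of 8 oligodendrocyte markers were higher, with median log2 fold changes of 1.68, 1.63, 0.75, 0.45 and 0.41. Of 8 neuron markers 7 were lower (median -0.52). The summed level of the astrocyte markers was 2130 to 2370 TPM in Sham and 4250 to 5400 TPM in Vehicle mice, that of the 10 listed infiltrating and border myeloid markers 8.93 to 11.1 TPM and 63 to 140.0 TPM, and that of the neuron markers 6040 to 6350 TPM and 3620 to 4500 TPM, with no marker at 0 in a whole group. The median summed level of the endothelial markers was 249 TPM in Sham and 315 TPM in Vehicle mice. Their part in the rise of the listed genes was not tested.

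**Figure D1:**
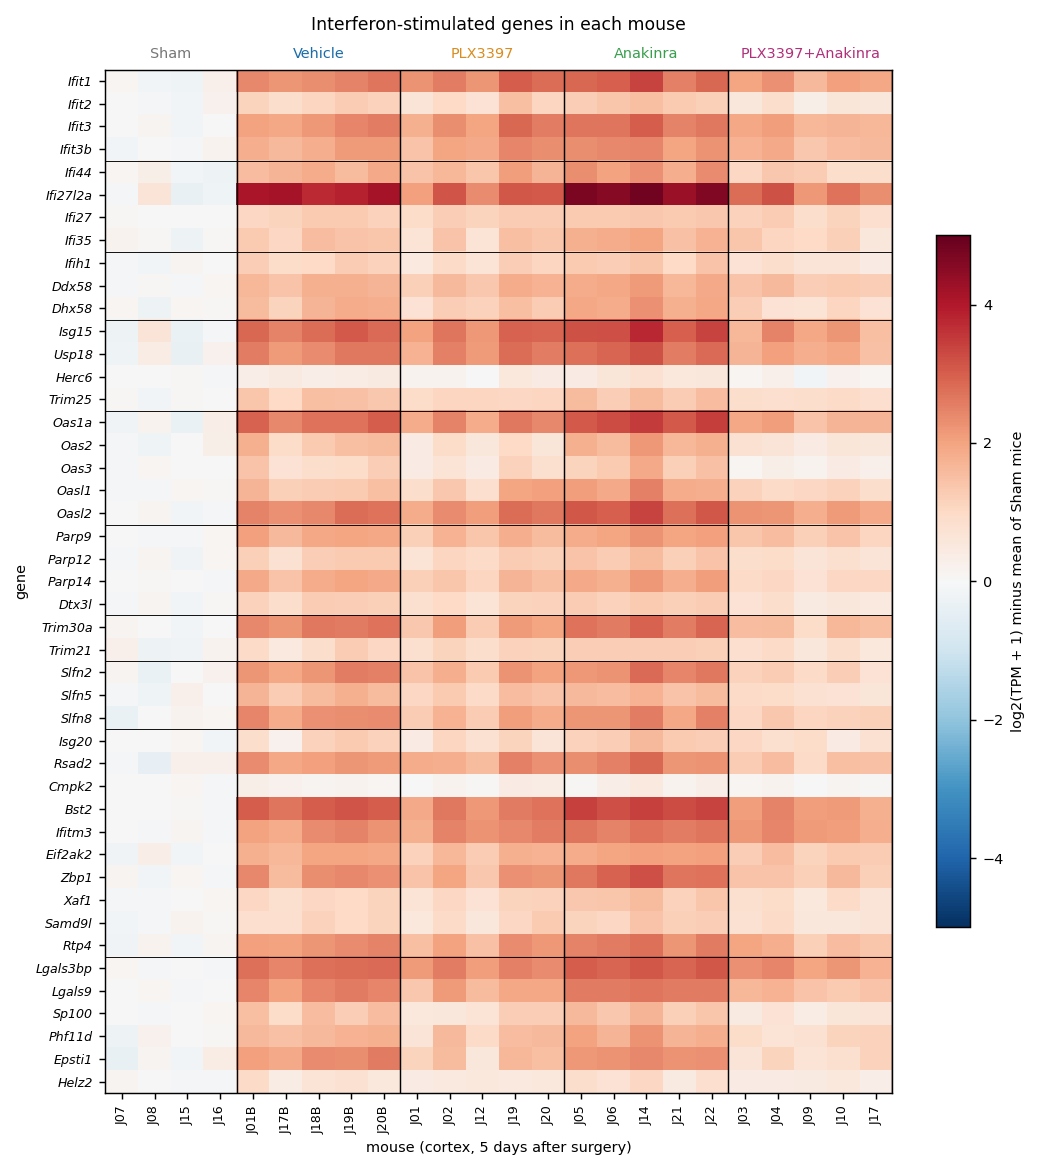
Each row is a listed gene and each column a mouse, ordered by group; colour gives log2(TPM + 1) minus the mean of the 4 Sham mice. Colour deepens in the TBI columns, most with Anakinra and least with PLX3397+Anakinra; Ifi27l2a, at a log2 fold change of 4.00 in Vehicle mice, is the deepest row, and Cmpk2, at 0.18, the palest.

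The Ifit family consists of proteins that bind foreign RNA and hinder its translation. Ifit3, its most abundant member, which binds and steadies Ifit1 on RNA, had 11.2, 12, 9.77 and 10.8 TPM in the Sham mice and 46.7, 44.1, 52.6, 63.9 and 69.7 TPM in the Vehicle mice. With PLX3397 it had 39.3, 58.8, 45.8, 87.2 and 68.9 TPM, with Anakinra 75.7, 74.8, 97.3, 65.4 and 72.4 TPM and with both drugs 45.1, 50.2, 36.3, 37.2 and 36.3 TPM. All TBI mice lay above the Sham mice, the PLX3397 mice spread beyond both ends of the Vehicle range, and the Anakinra mice lay wholly above the PLX3397+Anakinra mice. The log2 fold change of Ifit3 against Sham was 2.22 ± 0.17 (SE, adjusted p = 5.47e-11) in Vehicle and 1.81 ± 0.17 (adjusted p = 7.37e-09) in PLX3397+Anakinra.

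Ifit3b, the near-identical neighbour of Ifit3, followed it at a lower level. It measured 6.26, 7.13, 6.58 and 7.99 TPM in Sham, 27.3, 23.4, 27.3, 33.9 and 33.5 TPM in Vehicle and 20.4, 30.6, 28.3, 41.9 and 38.9 TPM in PLX3397 mice. Anakinra mice had 38.9, 40.8, 42.4, 29.9 and 37.2 TPM and PLX3397+Anakinra mice 25.5, 28.2, 19.5, 22.1 and 23.2 TPM. Again only the latter pair of TBI groups was without overlap.

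Ifit1, which binds viral RNA with foreign cap structures, had 3.39, 2.67, 2.47 and 3.88 TPM in Sham and 20.5, 17.9, 19.6, 21.6 and 25.2 TPM in Vehicle mice. It reached 18.1, 22.9, 17.7, 32.1 and 27 TPM with PLX3397, 28.6, 31.1, 41.3, 22.6 and 28.9 TPM with Anakinra and 14.8, 19, 11.5, 15.9 and 14.6 TPM with both drugs. PLX3397 and Vehicle mice overlapped, with a log2 fold change of 0.14 ± 0.15 (95% interval -0.18 to 0.46). Ifit2 was the least changed member of the family by injury, at 9.48 ± 1.22 TPM (SD, n = 4) in Sham and 21.5 ± 2.18 TPM (n = 5) in Vehicle mice, which is 1.11 ± 0.13 on the log2 scale (adjusted p = 1.12e-07).

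Isg15 is a ubiquitin-like protein that is attached to other proteins. On the log2 scale, which understates changes of low genes, it was among the 5 listed genes that rose most with injury. Its levels were 4.32, 8.79, 3.97 and 5.09 TPM in Sham, 45, 34.2, 42.9, 51.2 and 44.2 TPM in Vehicle and 24.7, 38.9, 27.3, 47.7 and 45.9 TPM in PLX3397 mice. They were 56.9, 57.7, 85.2, 49.4 and 65.2 TPM in Anakinra and 19.1, 34.2, 23.1, 28.3 and 17.1 TPM in PLX3397+Anakinra mice. Every Anakinra mouse exceeded every PLX3397 mouse, while Vehicle overlapped both. Mean TPM was 7.84 times the Sham level in Vehicle mice (log2 fold change 2.81 ± 0.21, adjusted p = 5.36e-11) and 4.39 times in PLX3397+Anakinra mice (1.97 ± 0.21, adjusted p = 8.17e-08).

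The enzymes around Isg15 rose to different degrees. Usp18, which removes Isg15 and blocks signalling at Ifnar2, went from 1.91 ± 0.699 TPM to 14.9 ± 2.38 TPM in Vehicle mice (log2 fold change 2.47 ± 0.18, adjusted p = 2.66e-11). Herc6, the ligase that attaches Isg15 in mouse, was already at 9.74 ± 0.315 TPM in Sham mice and rose by 0.38 ± 0.09 (adjusted p = 7.40e-04) to 13 ± 0.542 TPM. In PLX3397+Anakinra mice Herc6 stood at 10.6 ± 1.23 TPM and was 1 of the 3 listed genes that were not called against Sham, with a log2 fold change of 0.11 ± 0.09 (adjusted p = 0.352).

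The OAS enzymes make short adenylate chains that activate RNase L, and the related Oasl1 lacks this activity. Oasl2, the most abundant, measured 3.53, 3.85, 3.07 and 3.3 TPM in Sham and 23.4, 20.4, 22.3, 29.6 and 27.9 TPM in Vehicle mice. It measured 14.8, 21.9, 17.8, 29.7 and 26.4 TPM with PLX3397, 37, 34.1, 45.7, 28.5 and 36.8 TPM with Anakinra and 19.8, 19.6, 14.4, 18.2 and 15.5 TPM with both drugs. The PLX3397+Anakinra mice lay below all Vehicle and all Anakinra mice. Its log2 fold change against Sham was 2.52 ± 0.15 (adjusted p = 7.93e-13) in Vehicle mice.

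Oas1a had 0.777, 1.28, 0.622 and 1.53 TPM in Sham, 14.8, 9.75, 12.2, 12.3 and 15.3 TPM in Vehicle and 6.39, 10.2, 6.31, 11.7 and 9.65 TPM in PLX3397 mice. It had 16.1, 18.6, 21.9, 15.8 and 20.9 TPM in Anakinra and 6.82, 7.58, 4.37, 5.58 and 5.49 TPM in PLX3397+Anakinra mice. Here the Anakinra mice stood above all others and the PLX3397+Anakinra mice below all Vehicle mice. Mean TPM in Vehicle was 12.2 times that in Sham (log2 fold change 2.76 ± 0.17, adjusted p = 1.13e-12).

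Oasl1, which holds back translation of Irf7, was low in Sham mice at 0.251, 0.299, 0.442 and 0.389 TPM and had 3.34, 2.03, 2.23, 2.29 and 2.83 TPM in Vehicle mice. PLX3397 mice had 1.46, 2.43, 1.39, 4.31 and 4.56 TPM, Anakinra mice had 4.71, 4.04, 6.66, 3.82 and 3.75 TPM, and PLX3397+Anakinra mice had 2.02, 1.64, 1.76, 1.96 and 1.46 TPM. The Anakinra mice all exceeded the Vehicle mice, and the PLX3397+Anakinra mice all lay under them. Oas3 was the lowest listed gene, at 0.0301 to 0.144 TPM in Sham and 0.774 to 1.87 TPM in Vehicle mice. With both drugs it had 0.131 to 0.415 TPM and was not called against Sham (log2 fold change 0.24 ± 0.16, adjusted p = 0.25).

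Parp9, Parp12 and Parp14 belong to the enzymes that attach ADP-ribose to proteins, and Dtx3l is the ubiquitin ligase bound to Parp9. Parp12 was the most abundant, with 9.77, 11.2, 8.96 and 11.1 TPM in Sham and 24.7, 18.2, 25.4, 26.6 and 27 TPM in Vehicle mice. Values were 17.1, 22.7, 20.9, 25.8 and 24.6 TPM with PLX3397, 29.5, 26.3, 32.4, 24.5 and 29.2 TPM with Anakinra and 19.6, 20.1, 16.4, 18.8 and 16.6 TPM with both drugs. Among the TBI groups Parp12 separated only the Anakinra from the PLX3397+Anakinra mice completely.

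Parp9 measured 2.61, 2.35, 2.33 and 2.81 TPM in Sham, 13.6, 9.79, 12.6, 12.9 and 12.3 TPM in Vehicle, and 7.13, 10.8, 8.27, 11.6 and 9.42 TPM in PLX3397 mice. It measured 11.8, 13, 15.6, 12.7 and 13.6 TPM in Anakinra and 8.16, 9.18, 7.01, 8.45 and 6.47 TPM in PLX3397+Anakinra mice. The latter mice lay below all Vehicle and all Anakinra mice. Against Sham, the 4 genes of this group had log2 fold changes between 1.14 (Dtx3l) and 1.90 (Parp9) in Vehicle mice.

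Among the Trim ubiquitin ligases, Trim25 acts on the RNA sensor Ddx58 and had 5.79, 4.87, 5.73 and 5.67 TPM in Sham and 16, 12.2, 17.4, 17.1 and 15.5 TPM in Vehicle mice. It had 11.2, 12.6, 12.7, 12.2 and 12.8 TPM in PLX3397, 18.3, 14.1, 18.2, 14.6 and 17.9 TPM in Anakinra and 10.9, 10.7, 10.9, 11.6 and 10.7 TPM in PLX3397+Anakinra mice. The SD was 0.662 TPM in PLX3397 and 0.377 TPM in PLX3397+Anakinra mice, against 2.09 TPM in both Vehicle and Anakinra mice. All PLX3397+Anakinra mice were below all Vehicle mice, and 1 Vehicle mouse fell inside the PLX3397 range.

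Trim30a, which restrains Toll-like receptor signalling, showed wider steps. It had 2.25, 2.05, 1.67 and 1.94 TPM in Sham, 14.9, 12.6, 17.3, 17.1 and 18.5 TPM in Vehicle and 6.5, 11.5, 6.1, 12 and 10.6 TPM in PLX3397 mice. Anakinra mice had 18.4, 17.2, 21.9, 16.3 and 21.1 TPM and PLX3397+Anakinra mice 7.74, 7.93, 4.59, 8.43 and 7.31 TPM. Both groups that ate PLX3397 lay wholly below both groups that did not. Trim21, a cytosolic antibody receptor, had means of 2.58 ± 0.620 TPM in Sham, 5.81 ± 1.27 TPM in Vehicle and 6.16 ± 0.785 TPM in PLX3397 mice.

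The Schlafen genes are interferon-induced regulators of growth and quiescence in immune cells. Slfn2 had 3.24, 2.04, 2.78 and 3.5 TPM in Sham, 16.7, 13.7, 16.7, 21.8 and 21.3 TPM in Vehicle and 9.25, 12.4, 8.54, 17.2 and 14.5 TPM in PLX3397 mice. With Anakinra it had 16.4, 17.4, 26.1, 19.9 and 23.3 TPM and with both drugs 7.5, 8.39, 6.44, 8.07 and 5.43 TPM. The PLX3397+Anakinra mice lay below every mouse of the other TBI groups. This was so for Slfn2, Ifi44, Rsad2, Parp14 and Oas3, which are the 5 genes without overlap between PLX3397+Anakinra and PLX3397 described further on.

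Slfn5 measured 4.39, 3.98, 5.87 and 4.85 TPM in Sham, 17.8, 12.9, 16.2, 18.7 and 16.2 TPM in Vehicle and 10.8, 13.1, 10.2, 15.5 and 14.2 TPM in PLX3397 mice. It measured 16.7, 15.6, 18.3, 14.5 and 16.4 TPM with Anakinra and 10.2, 9.95, 8.75, 8.39 and 7.77 TPM with both drugs. The Anakinra mice lay within the Vehicle range, and the PLX3397+Anakinra mice lay below both. Slfn8 rose by 2.26 ± 0.16 (adjusted p = 1.30e-11) from 0.682 ± 0.255 TPM in Sham to 7.07 ± 1.17 TPM in Vehicle mice, and Slfn2 by 2.29 ± 0.18 (adjusted p = 6.63e-11).

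Ifi27l2a, a small membrane protein of the Ifi27 family, had the largest log2 fold change of all listed genes in Vehicle against Sham mice. It went from 1.45, 3.07, 0.992 and 1.25 TPM in Sham to 43.3, 45.3, 33.6, 36.1 and 45.3 TPM in Vehicle mice, 24.1 times as much by group means (log2 fold change 4.00 ± 0.22, adjusted p = 1.39e-13). PLX3397 mice had 9.77, 21.7, 12.2, 21.5 and 20.7 TPM, Anakinra mice 67.3, 58.8, 71.5, 51 and 63.1 TPM and PLX3397+Anakinra mice 16.8, 22.6, 10.6, 15.8 and 12 TPM. The Anakinra mice stood above the Vehicle mice, and both groups with PLX3397 stood below them and overlapped each other. The adjacent Ifi27 was the most abundant listed gene in Sham mice and went from 56.7 ± 1.98 TPM to 130.1 ± 11.2 TPM.

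Ifi44, an interferon-induced protein of little-known function, had 0.879, 1.12, 0.603 and 0.454 TPM in Sham, 4.02, 4.7, 5.29, 4.27 and 5.53 TPM in Vehicle and 3.74, 4.54, 3.59, 6.37 and 4.62 TPM in PLX3397 mice. Anakinra mice had 7.83, 6.03, 7.4, 5.11 and 8.03 TPM and PLX3397+Anakinra mice 2.59, 3.48, 3.26, 2.24 and 2.17 TPM. The Vehicle and PLX3397 ranges overlapped, and the PLX3397+Anakinra mice lay under both.

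The RNA sensors Ddx58, Ifih1 and Dhx58, which start the response to foreign RNA, all rose. Ddx58 went from 3.19 ± 0.273 TPM in Sham to 12.4 ± 1.24 TPM in Vehicle mice (1.67 ± 0.11, adjusted p = 7.74e-12), and Ifih1 from 3.19 ± 0.356 TPM to 8.12 ± 0.904 TPM (1.12 ± 0.12, adjusted p = 2.72e-08). Dhx58, which modulates the other sensors, went from 1.86 ± 0.307 TPM to 7.88 ± 1.66 TPM (1.62 ± 0.16, adjusted p = 3.45e-09).

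Bst2, the tetherin that holds budding virus at the cell surface, had 14, 13.4, 14.5 and 12.9 TPM in Sham, 119, 92.7, 119, 131 and 118 TPM in Vehicle and 53.3, 91.3, 64.7, 88.9 and 96.1 TPM in PLX3397 mice. Anakinra mice had 158, 136, 156, 141 and 153 TPM and PLX3397+Anakinra mice 62, 80.8, 61.3, 63.6 and 50.0 TPM. The 5 Anakinra mice were above the 5 Vehicle mice, the PLX3397 mice reached only into the lowest part of the Vehicle range, and the PLX3397+Anakinra mice lay wholly under it. By group means Vehicle had 8.46 times the Sham level (log2 fold change 2.98 ± 0.14, adjusted p = 4.19e-15).

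Zbp1, a sensor of left-handed nucleic acid that can trigger cell death, had 0.460, 0.188, 0.405 and 0.255 TPM in Sham, 5.99, 3.0, 5.6, 5.97 and 5.38 TPM in Vehicle and 2.52, 4.13, 2.33, 5.37 and 5.12 TPM in PLX3397 mice. Anakinra mice had 7.29, 9.25, 11.4, 7.56 and 7.73 TPM and PLX3397+Anakinra mice 2.57, 2.55, 2.03, 3.02 and 2.06 TPM. The Anakinra mice exceeded every other mouse. Vehicle J17B, at 3.00 TPM, was the only Vehicle mouse within the PLX3397+Anakinra range.

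Rsad2 (viperin, which makes a chain-ending nucleotide) and the mitochondrial nucleotide kinase Cmpk2 are neighbours that are usually induced together, and here Rsad2 passed the test and Cmpk2 did not. Rsad2 had 1.28, 0.789, 1.85 and 1.83 TPM in Sham and 11.3, 8.22, 8.83, 10.2 and 9.4 TPM in Vehicle mice, with a log2 fold change of 2.14 ± 0.17 (adjusted p = 1.81e-10). Cmpk2 had 26, 25.4, 28.2 and 24.9 TPM in Sham and 31.8, 30.4, 28.6, 29.5 and 28.1 TPM in Vehicle mice, which overlapped, with a log2 fold change of 0.18 ± 0.08 (adjusted p = 0.0613). Cmpk2 was called in 1 of the 4 comparisons with Sham, that of Anakinra (0.27 ± 0.08, adjusted p = 0.00557), and in no comparison among the TBI groups.

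Lgals3bp, a secreted galectin-binding glycoprotein, was the most abundant of the 5 listed genes with the largest log2 fold changes in Vehicle against Sham mice. It had 25.9, 23.5, 24.2 and 23.2 TPM in Sham, 170.5, 136, 168, 174 and 180.1 TPM in Vehicle and 108, 147, 106, 143 and 129.6 TPM in PLX3397 mice. Anakinra mice had 207, 188, 217, 186 and 217 TPM and PLX3397+Anakinra mice 123, 136, 98.7, 116 and 83.5 TPM. The Anakinra mice lay above the Vehicle mice, and the highest PLX3397+Anakinra mouse lay just under the lowest Vehicle mouse, J17B. Its log2 fold change in Vehicle against Sham mice was 2.72 ± 0.11 (adjusted p = 7.25e-16).

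Epsti1, named for its response to contact of epithelium with stroma, had 0.302, 0.808, 0.532 and 1.12 TPM in Sham, 5.91, 5.12, 7.56, 7.24 and 9.19 TPM in Vehicle and 2.59, 3.94, 1.5, 4.3 and 3.76 TPM in PLX3397 mice. Anakinra mice had 6.53, 6.84, 7.78, 6.79 and 7.0 TPM and PLX3397+Anakinra mice 1.63, 2.62, 1.69, 1.89 and 2.68 TPM. As with Trim30a, the groups with PLX3397 lay wholly below those without it, and Vehicle and Anakinra overlapped.

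The other members rose with injury too, over a wide span of levels. Ifitm3 went from 50.0 ± 4.07 TPM in Sham to 235 ± 42.3 TPM in Vehicle mice (2.19 ± 0.14, adjusted p = 1.15e-12), and the galectin Lgals9 from 10.9 ± 0.570 TPM to 61.9 ± 8.57 TPM (2.39 ± 0.12, adjusted p = 2.74e-14). Eif2ak2, the kinase PKR that halts translation on binding double-stranded RNA, went from 4.4 ± 0.932 TPM to 18.5 ± 1.96 TPM, and the exonuclease Isg20 from 1.23 ± 0.146 TPM to 3.43 ± 1.13 TPM. All 4 lay above Sham without overlap. Rtp4, a receptor transporter that also restricts virus, rose from 2.74 to 16.4 TPM on average, Xaf1, a factor in apoptosis, from 3.29 to 7.58 TPM, and Samd9l, a restrictor of translation, from 2.56 to 6.04 TPM. Phf11d, Ifi35, Sp100 and Helz2 rose by log2 fold changes of 1.64, 1.34, 1.35 and 0.66.

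**Figure D2:**
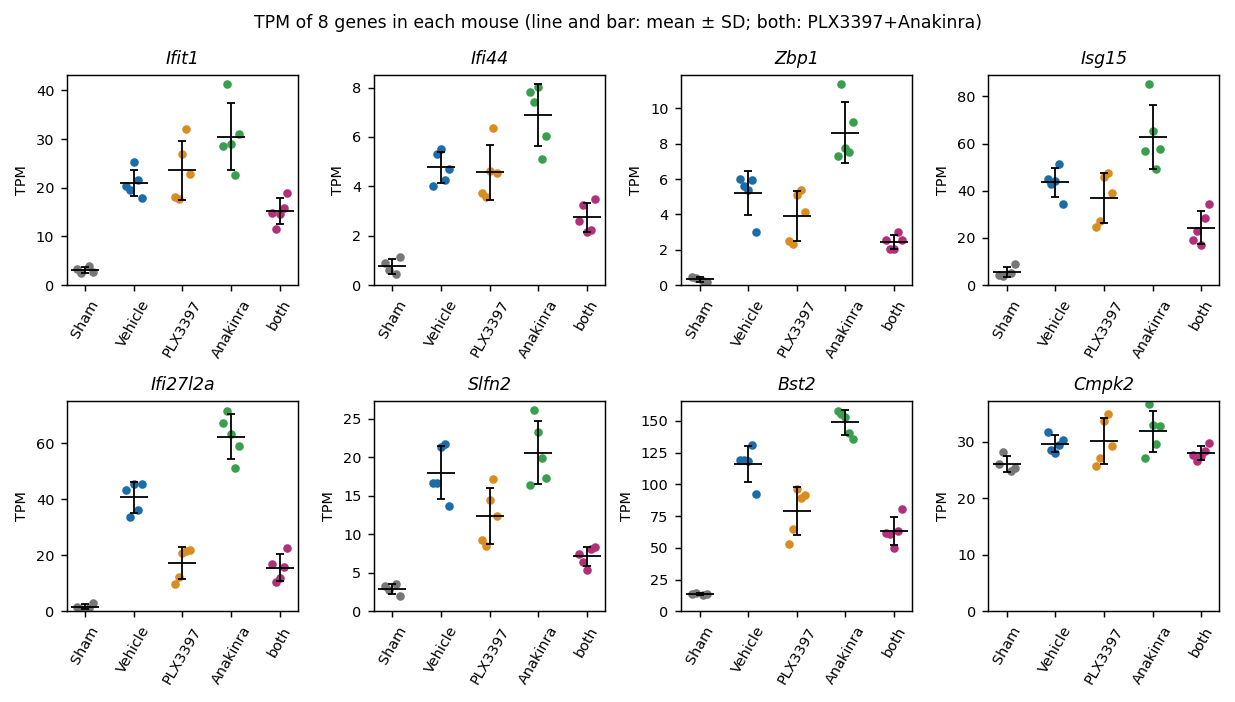
Points are mice, lines the group mean and bars the SD, in TPM on axes that start at 0, for 8 genes. For Ifit1 and Ifi44 the Vehicle and PLX3397 mice overlap, Ifi27l2a and Bst2 fall with PLX3397, Zbp1 and Isg15 are highest with Anakinra alone, and Cmpk2 stays between 24.9 and 36.6 TPM in all 24 mice.

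The order of the groups was nearly uniform across the set. Sham had the lowest mean of all 5 groups in 45 of 45 genes, and PLX3397+Anakinra had the lowest mean of the TBI groups in 45 of 45. Anakinra had the highest mean in 43 of 45, and Vehicle in the other 2, Slfn5 and Epsti1. Neighbours in this order often overlapped. Anakinra exceeded Vehicle without overlap in 8 genes (17.8% of 45, background 1.14%). PLX3397 lay under Vehicle without overlap in 3 of 45, a share near the background of 4.91%. The genes share libraries and cells, so that these 45 orders are not independent of each other.

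All 3 drug groups stayed above Sham. PLX3397 mice exceeded Sham in 44 of the 45 genes (22.7% of all genes tested were higher), Anakinra mice in 45 (25.1%) and PLX3397+Anakinra mice in 42 (20.7%), and no listed gene was lower in any of the 3 comparisons. Median log2 fold changes were 1.42 for PLX3397, 1.99 for Anakinra and 1.05 for PLX3397+Anakinra. By the study's stricter limits on TPM, applied with the unadjusted p of limma in place of the study's own tests, 27 genes were higher in PLX3397 and 20 in PLX3397+Anakinra mice. The share of all genes that met these limits was not computed, here or for the later counts by the study's criteria. These comparisons share the 4 Sham mice with each other and with that of Vehicle. Herc6, Oas3 and Cmpk2 were the 3 genes not called in PLX3397+Anakinra against Sham, whereas Ifi27l2a was still at 9.21 times the Sham mean (log2 fold change 2.63 ± 0.22, adjusted p = 1.14e-09).

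PLX3397 alone lowered part of the set. The comparison asks what inhibition of CSF1R, on which microglia depend, did to the response. Against Vehicle, 15 of the 45 genes were lower and none was higher at an adjusted p below 0.05, where 6.66% of all genes tested were lower. The median log2 fold change was -0.23, against 0.01 over all genes. The 15 genes were Ifi27l2a, Trim25, Trim30a, Oas1a, Oas2, Parp9, Parp14, Slfn2, Slfn5, Slfn8, Bst2, Lgals3bp, Lgals9, Sp100 and Epsti1. By the study's criteria, here an unadjusted p of limma below 0.05, a ratio of mean TPM above 2 and a difference above 4 TPM, 1 gene was lower. When only the Vehicle and PLX3397 mice entered the fit 8 genes were called, and 9 were without each of Vehicle J18B, Vehicle J20B, PLX3397 J01 and PLX3397 J12. The calls nearest to the threshold were those of Slfn5, Slfn2, Oas1a and Parp9, with adjusted p of 0.0485, 0.0416, 0.0424 and 0.0372, which were lost under 21, 11, 10 and 9 of 30 alternative settings.

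Ifi27l2a fell most under PLX3397, by a log2 fold change of -1.25 ± 0.21 (adjusted p = 1.75e-04), to 0.422 of the Vehicle mean TPM. Epsti1 followed with -0.95 ± 0.17 (adjusted p = 4.55e-04) and Trim30a with -0.76 ± 0.16 (adjusted p = 0.00205). These 3 are the genes without overlap between PLX3397 and Vehicle, a count near the background share of 4.91%. Oas2, an adenylate synthetase, fell by 0.73 on the log2 scale (adjusted p = 0.00119), from 3.18 ± 0.888 TPM to 1.5 ± 0.440 TPM. Lgals9, a galectin, went from 61.9 ± 8.57 TPM to 40.8 ± 8.81 TPM (-0.60 ± 0.11, adjusted p = 7.19e-04), and Sp100, a protein of nuclear bodies, from 7.95 ± 1.59 TPM to 5.41 ± 1.63 TPM (-0.50 ± 0.14, adjusted p = 0.0231).

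The families stood at different points in this comparison. All 3 Schlafen genes fell, with log2 fold changes of -0.34 to -0.61. In the Ifit family 0 of 4 genes passed the test, 3 of 4 estimates were above 0, and the median was 0.09. Of the OAS group 2 of 5 fell, of the Parp group 2 of 4 and of the Trim group 2 of 3, with medians of -0.34, -0.27 and -0.31. Ifitm3, a membrane protein that traps entering virus and the most abundant listed gene in TBI mice, measured 235 ± 42.3 TPM in Vehicle and 253 ± 50.8 TPM in PLX3397 mice (0.10 ± 0.13, 95% interval -0.17 to 0.36). Differences between families were not tested.

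**Figure D3:**
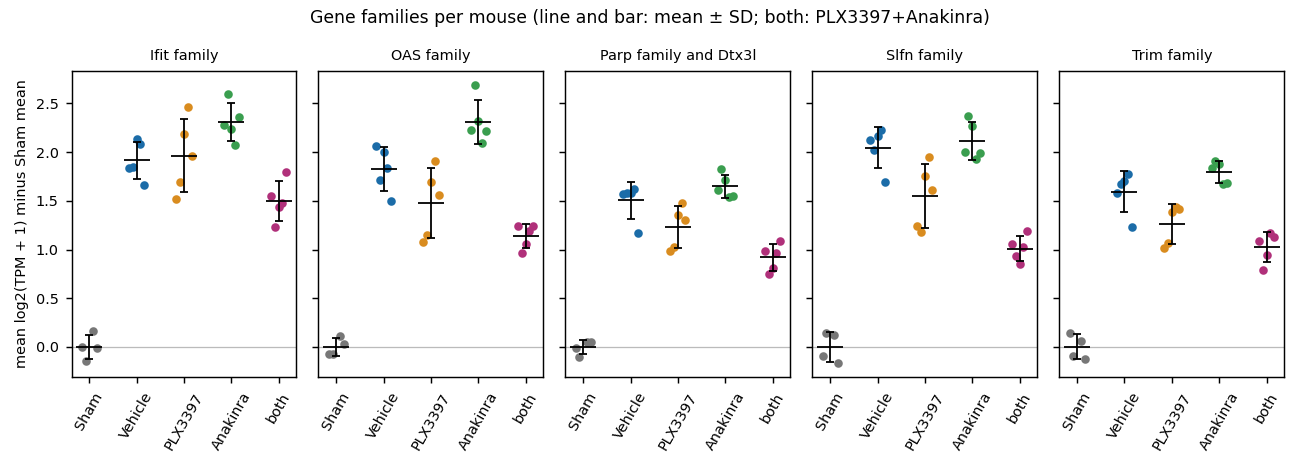
Each panel gives, per mouse, the mean of log2(TPM + 1) over a gene family minus its mean in the Sham mice; lines are group means and bars SD. In the Ifit family the Vehicle mean of 1.91 and the PLX3397 mean of 1.97 nearly coincide, in the Slfn family they are 2.05 and 1.55, and PLX3397+Anakinra has the lowest mean of the TBI groups in all 5 panels.

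Microglia markers moved with PLX3397. All 11 markers on the list (Cx3cr1, P2ry12, P2ry13, Tmem119, Csf1r, Siglech, Sall1, Fcrls, Gpr34, Trem2 and Aif1) fell in PLX3397 against Vehicle mice, with a median log2 fold change of -1.36. Their summed level was 254 to 265 TPM in Sham, 995 to 1330 TPM in Vehicle, 431 to 672 TPM in PLX3397, 1080 to 1200 TPM in Anakinra and 377 to 489 TPM in PLX3397+Anakinra mice, with no marker at 0 in any group. In bulk tissue, fewer cells of a type and less RNA per cell cannot be told apart. Anakinra left the markers at a median of -0.03 against Vehicle and of -0.09 in PLX3397+Anakinra against PLX3397, with 0 of 11 called by limma in both (1 higher and 3 lower, respectively, at an unadjusted p below 0.05). Of 9 tested markers of infiltrating and border myeloid cells, 5 were also lower in PLX3397 than in Vehicle mice and none was called higher (median -0.84). Their estimates were mixed, with 6 below 0 and 3 above it, from -1.82 (Mrc1) to 0.73 (S100a8). From Vehicle to PLX3397, mean TPM went from 6.02 to 0.987 for Mrc1, from 1.45 to 0.305 for Cd163 and from 63.1 to 30.6 for Pf4. It went from 11.5 to 18.9 for S100a8, from 5.69 to 8.12 for S100a9 and from 1.42 to 2.0 for Ly6c2. Higher were 2 of 8 neuron markers, 1 of 8 astrocyte markers and 1 of 8 oligodendrocyte markers. The share of all genes that were higher in this comparison is not given here. The part of these markers in the fall of the listed genes was not tested.

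**Figure D4:**
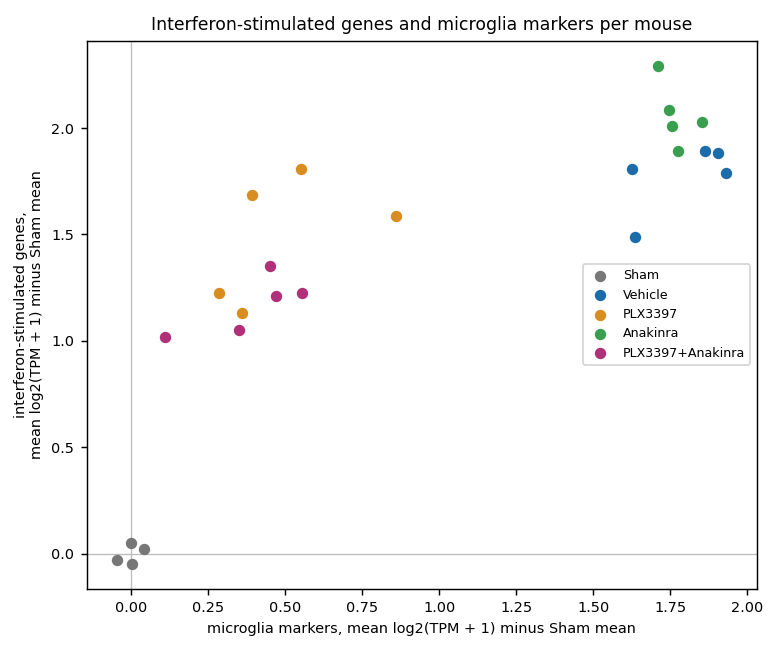
Each point is a mouse, with the mean of log2(TPM + 1) over the 11 microglia markers on the horizontal axis and over the 45 listed genes on the vertical axis, both minus the Sham mean. PLX3397 mice lie at 0.285 to 0.861 on the horizontal axis and 1.13 to 1.81 on the vertical axis, PLX3397+Anakinra mice at 0.112 to 0.555 and 1.02 to 1.35, and Vehicle and Anakinra mice all lie at 1.63 or more horizontally.

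With Anakinra alone no listed gene passed the adjusted threshold, and the estimates leaned to higher levels. The comparison asks what blocking IL1R1 did in injured tissue. Against Vehicle, limma called 0 of the 45 genes at an adjusted p below 0.05 in either direction (0.0695% of all genes tested were higher), and the smallest adjusted p was 0.109. At an unadjusted p below 0.05, 23 of 45 were higher and none was lower, against 5.50% of all genes that were higher. The median log2 fold change was 0.29, against -0.01 over all genes, and all 45 estimates were at or above 0. The 23 became 14 without Vehicle J17B and 15 without Anakinra J14, the mice that were lowest and highest of their groups in most listed genes.

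The 3 largest estimates belonged to Zbp1, Oasl1 and Ifi27l2a. Zbp1 had a log2 fold change of 0.65 ± 0.17 (unadjusted p = 9.11e-04, adjusted p = 0.109 by limma), with 1.66 times the Vehicle mean TPM. For Oasl1 it was 0.65 ± 0.19 (unadjusted p = 0.00206, adjusted p = 0.139 by limma) and for Ifi27l2a 0.60 ± 0.21 (unadjusted p = 0.00821, adjusted p = 0.219 by limma). In each of the 3 all 5 Anakinra mice exceeded all 5 Vehicle mice, and the same held for Oas1a, Bst2, Ifitm3, Xaf1 and Lgals3bp.

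By family, all 5 OAS genes were higher at the unadjusted threshold, with log2 fold changes of 0.36 to 0.65, and 3 of 4 Ifit genes, with 0.22 to 0.50. Of the Trim group 1 of 3 was, Trim21. None of the 4 genes of the Parp group and none of the 3 Schlafen genes was. Slfn5 had an estimate of 0.00 ± 0.11 (95% interval -0.23 to 0.23), Slfn8 of 0.02 ± 0.15 (-0.29 to 0.33) and Epsti1 of 0.02 ± 0.17 (-0.34 to 0.37).

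In mice that also received PLX3397, the estimate for Anakinra was of the opposite sign. PLX3397+Anakinra against PLX3397 gave 0 of 45 genes at an adjusted p below 0.05 by limma (0.145% of all genes tested were lower), with a smallest adjusted p of 0.122. At an unadjusted p below 0.05, 25 of 45 were lower and none was higher, against 3.78% of all genes that were lower. The median log2 fold change was -0.29, against 0.01 over all genes, and all 45 estimates were below 0. Without PLX3397 J01, 3 genes passed the adjusted threshold and 38 the unadjusted one, and none passed the adjusted one without PLX3397 J19 or J20, with 14 and 16 at the unadjusted one. In 5 genes, Slfn2, Ifi44, Rsad2, Parp14 and Oas3, the PLX3397+Anakinra mice lay below all PLX3397 mice, where 0.764% of all genes did.

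Slfn2 had the estimate farthest below 0, -0.68 ± 0.17 (unadjusted p = 3.97e-04, adjusted p = 0.122 by limma), followed by Rsad2 with -0.65 ± 0.16 (unadjusted p = 6.07e-04, adjusted p = 0.136 by limma) and Ifit1 with -0.59 ± 0.15 (unadjusted p = 8.91e-04, adjusted p = 0.152 by limma). All 4 Ifit, all 4 Parp and all 3 Schlafen genes were lower at the unadjusted threshold, and 2 of 5 OAS genes and 1 of 3 Trim genes were. Ifi27l2a, which PLX3397 alone had lowered most, had -0.11 ± 0.21 (95% interval -0.55 to 0.32).

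**Figure D5:**
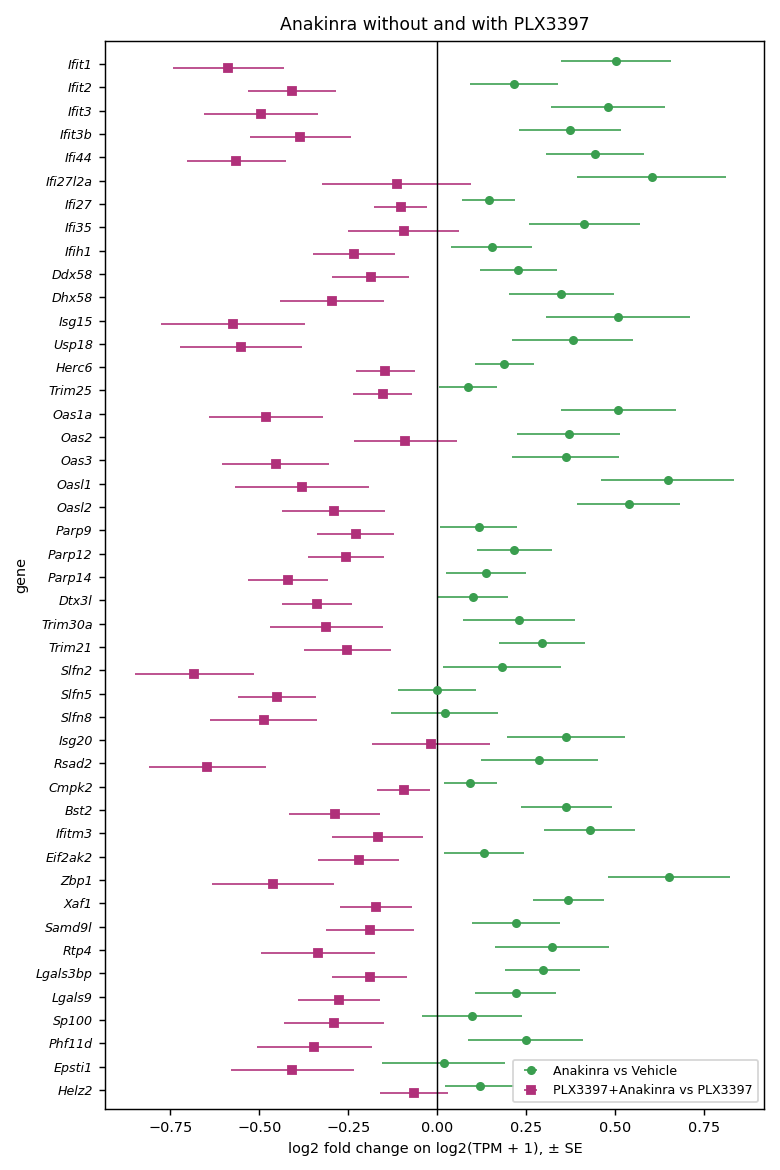
For each listed gene, the log2 fold change on log2(TPM + 1) with its SE is plotted for Anakinra against Vehicle (circles) and for PLX3397+Anakinra against PLX3397 (squares). All circles lie at or right of 0 and all squares left of it, with Slfn5, Slfn8 and Epsti1 nearest to 0 in the first comparison and Isg20, Helz2 and Oas2 in the second.

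Some myeloid markers other than those of microglia were lower in the second of these comparisons. Of 9 tested markers of infiltrating and border myeloid cells, 2 were lower, 7 were not called and none was higher in PLX3397+Anakinra against PLX3397 at an adjusted p below 0.05. Of all genes tested, 0.145% were lower. The median log2 fold change was -0.56, and estimates ran from -1.88 (Pf4) to 0.002 (Cd163). Pf4 had means of 30.6 TPM in PLX3397 and 7.55 TPM in PLX3397+Anakinra mice, and S100a8 18.9 TPM and 10.7 TPM. These 2 genes weigh most in the sum of both groups and are named for their level, not as the 2 called. Ms4a7 had means of 6.44 TPM and 2.11 TPM. Of the 9 estimates, 8 were below 0 and 1 was above it. The summed level of the 10 listed markers was 8.93 to 11.1 TPM in Sham, 63.0 to 140 TPM in Vehicle, 40.0 to 109 TPM in PLX3397, 73.3 to 120 TPM in Anakinra and 21.8 to 37.2 TPM in PLX3397+Anakinra mice, and none was at 0 in a whole group. Of 10 lymphocyte and natural killer cell markers, only Cd4 reached the level filter. Their summed level was 14.8 to 23.3 TPM over all mice and mainly followed Cd4, which had means of 15.5 TPM in Sham and 16.4 to 19.3 TPM in the TBI groups. Each other marker had group means of at most 0.602 TPM, and Cd3e was at 0 in all Sham mice and Cd3d in all Anakinra mice. Their part in the change of the listed genes was not tested.

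The difference between both Anakinra effects was tested as an interaction, which is the effect with PLX3397 minus the effect without it. limma called 0 of 45 genes at an adjusted p below 0.05 (0% of all genes tested), and the smallest adjusted p among the listed genes was 0.153. At an unadjusted p below 0.05, 39 of 45 were lower and none was higher, against 4.22% of all genes that were lower. The median interaction was -0.54 on the log2 scale, against 0.02 over all genes. Without PLX3397 J01, 4 listed genes passed the adjusted threshold, and leaving out any other mouse gave 0. At the unadjusted threshold, leaving out each mouse gave between 30 (without PLX3397 J19) and 43 (without PLX3397 J01) of the 45.

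Ifi44, Ifit1 and Zbp1 had the smallest p. The interaction of Ifi44 was -1.01 ± 0.20 (unadjusted p = 2.77e-05, adjusted p = 0.153 by limma): Anakinra against Vehicle was 0.44 ± 0.14 and PLX3397+Anakinra against PLX3397 was -0.57 ± 0.14. For Ifit1 it was -1.09 ± 0.22 (unadjusted p = 4.35e-05, adjusted p = 0.153 by limma), from 0.50 ± 0.15 without and -0.59 ± 0.15 with PLX3397. For Zbp1 it was -1.11 ± 0.24 (unadjusted p = 1.23e-04, adjusted p = 0.275 by limma), from 0.65 ± 0.17 and -0.46 ± 0.17. Trim25, Isg20, Cmpk2, Sp100, Epsti1 and Helz2 were the 6 genes above the unadjusted threshold, with estimates of -0.39 for Sp100, -0.43 for Epsti1 and -0.18 for Helz2, a helicase that acts as a nuclear coactivator.

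Both drugs together lowered most of the set against Vehicle. PLX3397+Anakinra mice had 33 of the 45 genes lower and none higher at an adjusted p below 0.05, where 9.60% of all genes tested were lower. In 27 of the 45 all PLX3397+Anakinra mice lay below all Vehicle mice, against 6.62% of all genes. The median log2 fold change was -0.58, against 0.01 over all genes, and the microglia markers were lower in 11 of 11 with a median of -1.44. Of 9 markers of infiltrating and border myeloid cells 6 were lower and none was called higher (median -0.94). Their estimates ran from -2.88 (Pf4) to 0.23 (S100a9), with 2 of them above 0. Of 8 neuron markers 4 were higher and none was lower (median 0.18), and of 8 astrocyte markers 1 was higher and 1 lower. The share of all genes that were higher is not given here for this comparison. The part of these cell type markers in the fall of the listed genes was not tested. By the study's criteria 6 genes were lower. This comparison shares the Vehicle mice with that of PLX3397 alone.

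The 3 largest log2 fold changes were in Ifi27l2a (-1.37 ± 0.21, adjusted p = 3.13e-05), Epsti1 (-1.36 ± 0.17, adjusted p = 2.03e-06) and Slfn2 (-1.21 ± 0.17, adjusted p = 6.51e-06). Mean TPM of Slfn2 fell to 0.398 of the Vehicle level, and that of Epsti1 to 0.300. Oas1a fell from 12.9 ± 2.25 TPM to 5.97 ± 1.25 TPM (adjusted p = 6.81e-05). Log2 fold changes of others were, for Trim30a, -1.07 ± 0.16 (adjusted p = 1.92e-05), for Isg15 -0.84 ± 0.20 (adjusted p = 0.0045) and for Zbp1 -0.82 ± 0.17 (adjusted p = 0.00131).

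All 3 RNA sensors, Isg15, Usp18, Herc6 and Trim25, all 4 of the Parp group and all 3 Schlafen genes fell, as did 4 of 5 OAS genes, 2 of 3 Trim genes and 2 of 4 Ifit genes. The 12 genes not called were Ifit3, Ifit3b, Ifi27, Ifi35, Oasl1, Trim21, Isg20, Cmpk2, Ifitm3, Xaf1, Samd9l and Helz2. Ifit1 fell by 0.45 on the log2 scale (adjusted p = 0.0452, lost under 15 of 30 alternative settings), while its neighbour Ifit3 was at -0.42 ± 0.16 (adjusted p = 0.0756), and Ifitm3 was at -0.07 ± 0.13 (95% interval -0.33 to 0.20).

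Against Anakinra alone, 44 of 45 genes were lower in PLX3397+Anakinra mice (8.10% of all genes tested were lower), with a median log2 fold change of -0.89 against 0.03 over all genes. In 43 of 45 the groups did not overlap, against 7.26% of all genes. Ifi27l2a differed by -1.97 ± 0.21 (adjusted p = 1.50e-07), Oas1a by -1.50 ± 0.16 (adjusted p = 1.76e-07) and Zbp1 by -1.48 ± 0.17 (adjusted p = 6.42e-07). By the study's criteria 19 genes were lower. Cmpk2 was the gene not called (-0.17 ± 0.07, adjusted p = 0.127).

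The pathway that drives these genes was measured through 23 further genes, of which 19 passed the level filter. Transcripts of the interferons themselves were near the floor of the table. Ifnb1 was above 0 in 3 of 24 libraries with at most 0.179 TPM, Ifna2 in 1, Ifna4 in 2 and Ifng in 3, each under 0.5 TPM. Against Sham, 17 of the 19 tested genes were higher in Vehicle mice, where 26.6% of all genes tested were higher, and 1 was lower, Tbk1, a kinase upstream of interferon (-0.20 ± 0.05, adjusted p = 6.30e-04), where 27.7% of all genes tested were lower.

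Both receptor subunits were higher: Ifnar2 rose from 12.5 ± 0.968 TPM in Sham to 25 ± 2.16 TPM in Vehicle mice (0.94 ± 0.07, adjusted p = 4.08e-11) and Ifnar1 from 23.2 ± 1.82 TPM to 27.9 ± 1.08 TPM (0.26 ± 0.05, adjusted p = 7.36e-05). Of the transcription factors, Irf9 rose by 1.43 ± 0.09 (adjusted p = 2.59e-12) and Stat2 by 0.47 ± 0.07 (adjusted p = 1.17e-06).

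Irf7, the amplifier of interferon production, had 4.19, 2.95, 4.6 and 2.5 TPM in Sham and 25.8, 17.6, 22.6, 23.8 and 27.9 TPM in Vehicle mice. It had 13.2, 18.2, 16.7, 21.4 and 23.1 TPM with PLX3397, 37.5, 35.1, 42.4, 27.7 and 35.2 TPM with Anakinra and 15.9, 16.6, 11.9, 13.9 and 10.7 TPM with both drugs. The PLX3397+Anakinra mice lay below all Vehicle and all Anakinra mice, and the log2 fold change against Vehicle was -0.73 ± 0.15 (adjusted p = 0.00123).

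Cxcl10, an interferon-induced chemokine for T cells, went from 1.03, 0.370, 0.455 and 0.200 TPM in Sham to 30.6, 21.1, 26.8, 32.1 and 29.8 TPM in Vehicle mice. PLX3397 mice had 17.5, 31.1, 24.4, 36.8 and 34.6 TPM, Anakinra mice 39.5, 45.6, 51.6, 40.9 and 39.2 TPM and PLX3397+Anakinra mice 21.8, 21.3, 14.6, 18.2 and 19.4 TPM. The Anakinra mice stood above the Vehicle mice without overlap (log2 fold change 0.61 ± 0.16, unadjusted p = 9.28e-04, adjusted p = 0.11 by limma), PLX3397 and Vehicle overlapped (0.01 ± 0.16), and both drugs gave -0.53 ± 0.16 against Vehicle (adjusted p = 0.0242). Its interaction was -1.16 ± 0.23 (unadjusted p = 3.94e-05, adjusted p = 0.153 by limma).

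Of the 19 pathway genes, 5 fell and none rose with PLX3397 alone against Vehicle (6.66% of all genes tested were lower). With Anakinra alone limma called 0 (0.0695% of all genes were higher), and 5 were higher at an unadjusted p below 0.05 (5.50% of all genes). With both drugs 14 fell and none rose (9.60% of all genes were lower). The 5 were Ifnar2, Irf8, Tlr7, the DNA sensor Mb21d1 (cGAS) and its adaptor Tmem173 (STING). Irf8 and Tlr7, genes of myeloid cells, had the largest falls, -1.24 ± 0.13 (adjusted p = 1.81e-07) and -1.33 ± 0.14 (adjusted p = 2.53e-07).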

How the data were processed

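Total RNA of lesional and perilesional tissue was enriched for polyadenylated RNA and sequenced in paired-end mode, 1 library per mouse. The authors mapped the reads to GRCm38 in CLC Genomics Workbench and deposited values named TPM, which add up to 1e+06 in each library. The methods add that CLC calls this unit CPM, so whether the values correct for gene length could not be settled here. Levels of different genes are compared with that limit. Read counts were not used here, and depth is unknown. Further deposited tables hold rounded copies and p-values of the authors' own comparisons and were not used. limma 3.58.1 (R 4.3.3) was fitted to log2(TPM + 1) of the 17267 genes whose mean reached 0.5 TPM, with 1 mean per group, all 24 libraries and a variance trend. Adjusted p-values (Benjamini-Hochberg) run over all 17267 genes with a threshold of 0.05. The p-values test differences of group means against the spread between mice within groups, pooled over all groups and drawn towards the variance trend. The fit was tested on simulated data.

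The listed genes, the other gene lists and the tests were chosen with earlier results of these data known. Values per mouse are given for the 2 most abundant members of 5 families, the 5 largest log2 fold changes of Vehicle against Sham, the 3 largest of PLX3397+Anakinra and of Anakinra against Vehicle, and the 3 smallest p of the interaction. Rsad2, Cmpk2 and the promoters printed were chosen after their values were seen. The settings tried in place of these were 0.1 as the pseudocount, any gene above 0 TPM, only genes with a mean of 5 TPM or more, values rescaled by the median ratio, only the compared groups, no variance trend, leaving out each mouse, and the study's criteria (unadjusted p, a ratio of mean TPM above 2 and a difference above 4 TPM). For these criteria the p was that of limma and not of the study's own tests. Promoters came from RefSeq and shared words from GENCODE M21 transcripts. A microglia marker and a pathway gene of the lists are not reported here and entered no list value.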

Additional observations from a re-analysis of the deposited data

Results flagged for a closer look

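In 230 sets of values, each a gene or the mean of all listed genes in a group of 4 or 5 mice, the highest or lowest mouse stood apart by Dixon's criterion in 13, where chance is set to give about 1 in 20. Vehicle J17B accounts for 6 of the 13, each time as the lowest Vehicle mouse. It had 18.2 TPM of Parp12, 4.98 TPM of Parp14, 3.00 TPM of Zbp1, 136 TPM of Lgals3bp and 47.2 TPM of Lgals9, and its mean over the 45 genes was 1.489 above Sham on the log2 scale, against 1.81 for the median Vehicle mouse.

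Anakinra J14 was the highest of its group, with 13.1 TPM of Dhx58 and 5.92 TPM of Oas2. In Sham mice, J08 was low with 1.41 TPM of Dhx58 and 4.87 TPM of Trim25, and J07 stood apart with 3.79 TPM of Helz2. In PLX3397+Anakinra mice, J10 was high with 11.6 TPM of Trim25 and J09 low with 2.68 TPM of Parp14.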

How the results depend on the processing

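The medians of the listed genes kept their sign under every setting tried. With a pseudocount of 0.1 the median log2 fold change against Sham was 2.31 in Vehicle, 1.88 in PLX3397, 2.64 in Anakinra and 1.56 in PLX3397+Anakinra mice. A filter at a mean of 5 TPM drops the listed genes below it, among them Ifi44, Zbp1, Oasl1 and Epsti1. Its medians and counts therefore cover fewer listed genes than the main fit. With it the median log2 fold change of PLX3397+Anakinra against Sham was 1.30. In PLX3397+Anakinra against PLX3397, 16 of the remaining listed genes were lower at the unadjusted threshold. With only the compared groups, 8 genes were lower in PLX3397 than in Vehicle. By the study's criteria, which ask for a ratio and a difference in TPM, 27 genes were higher in PLX3397 and 20 in PLX3397+Anakinra than in Sham, and 1 was lower in PLX3397 and 6 in PLX3397+Anakinra than in Vehicle, and 19 in PLX3397+Anakinra than in Anakinra. Rescaling, dropping the variance trend and removing the filter moved no count of listed genes by more than 1.5 times.

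Leaving out each mouse in turn gave 9 to 18 genes lower in PLX3397 than in Vehicle and 14 to 27 higher at the unadjusted threshold in Anakinra than in Vehicle. It gave 0 to 3 lower (14 to 38 unadjusted) in PLX3397+Anakinra than in PLX3397, and 0 to 4 (30 to 43 unadjusted) with a lower interaction. Single estimates near 0 changed sign: in PLX3397 against Vehicle Ifit3 ranged from -0.07 (without PLX3397 J19) to 0.21 and Oasl1 from -0.13 to 0.18, and in Anakinra against Vehicle Epsti1 ranged from -0.07 to 0.11. The causes were not tested. No paired analysis was made because each animal label, read with its letter, occurs in 1 group only. Without the letter, the numbers of Vehicle J01B, J19B and J20B recur in PLX3397 mice and that of J17B in a PLX3397+Anakinra mouse. What the repeated numbers mean could not be settled here. The number of mice, 5 or 4 per group, and the unknown depth limit the precision for low genes such as Oas3.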
